A study of Mus musculus with 19 samples.

Results

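The integrated stress response and the serine synthesis pathway were described through 10 genes (Atf4, Asns, Atf3, Ddit3, Trib3, Chac1, Psat1, Phgdh, Shmt2 and Mthfd2) of the 26796 genes in the deposited table. Each gene was found by its mouse symbol, and all 10 were among the 15629 genes tested. A further identifier annotated as Ddit3 was at or near 0 in every library and was left out. The genes were chosen by their values in these samples: their 27HC against DMSO difference, and the co-variation of Atf4 targets such as Asns and Atf3 across tumours. Those values are therefore given as a description, with no test.

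RNA was sequenced from 19 whole tumours of Met1, a transplantable mouse mammary carcinoma line, grown in mice that received extracellular vesicles from neutrophils. In the 27HC group (10 tumours) the neutrophils had been treated with 27-hydroxycholesterol (27HC), an oxidised form of cholesterol and a known ligand of oestrogen and liver X receptors. In the DMSO group (9 tumours) they had been treated with the vehicle dimethyl sulfoxide (DMSO). The labels give the tissue as breast tumour, and do not give the mouse strain, age or sex, or the dose, route or time of the vesicles. Mice without vesicles were not analysed here, so vesicles are common to both groups. Whether any mouse bore more than 1 of the tumours is not stated, so p-values measure the spread between these samples.

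In the integrated stress response, kinases that sense amino acid shortage, unfolded protein, double-stranded RNA or haem shortage phosphorylate the initiation factor eIF2. Translation falls in general, while that of the transcription factor ATF4 rises, and ATF4 then induces genes for amino acid uptake, amino acid synthesis and tRNA charging. Serine synthesis and the mitochondrial folate enzymes that take one-carbon units from serine are among its known targets and are active in many tumours.

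The 10 genes fall into 3 roles. Atf4 (chr15:80255184-80257541 on GRCm38) encodes the transcription factor itself. Asns (chr6:7675169-7693254) encodes asparagine synthetase, Atf3 (chr1:191170296-191218039) and Ddit3 (chr10:127290774-127296288, CHOP) encode stress-induced transcription factors, Trib3 (chr2:152337422-152344032) encodes a pseudokinase that binds ATF4, and Chac1 (chr2:119351229-119354381) encodes an enzyme that degrades glutathione. Phgdh (chr3:98313170-98339990) and Psat1 (chr19:15904678-15947337) encode the first enzymes of serine synthesis. Shmt2 (chr10:127517123-127522444) and Mthfd2 (chr6:83305691-83325908) encode mitochondrial enzymes of one-carbon metabolism.

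ATF4 binds, with a C/EBP partner, an element of the form TGATGNAA. The RefSeq promoters on GRCm38.p6, from 250 bases before to 50 bases after each gene's start, were searched on both strands for TGATGNAA, for the related form TGACGNAA and for TGACGTCA, the cyclic AMP response element. All 10 genes were matched to a promoter. TGATGNAA was present in Asns, Atf3, Trib3 and Chac1, and TGACGNAA was also present in Atf3 and Chac1, without overlap between matches. TGACGTCA was in none of them. Of 32851 promoters, 3.97% held TGATGNAA, 1.59% held TGACGNAA and 1.79% held TGACGTCA. These letters do not lie in the windows of the other 6 genes. A match is a description of letters, not a mapped site. The promoters with a match are shown with the match in capitals, followed by those of Phgdh and Shmt2, the pair that co-varied most closely and has no match.
Asns, chr6:7693160-7693459, minus strand: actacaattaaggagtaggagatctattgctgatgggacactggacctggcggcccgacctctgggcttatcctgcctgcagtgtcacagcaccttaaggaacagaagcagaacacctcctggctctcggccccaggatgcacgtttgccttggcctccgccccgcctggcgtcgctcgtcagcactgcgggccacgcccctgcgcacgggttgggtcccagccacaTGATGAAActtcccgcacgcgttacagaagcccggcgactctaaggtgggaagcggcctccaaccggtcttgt
Atf3, chr1:191183284-191183583, minus strand: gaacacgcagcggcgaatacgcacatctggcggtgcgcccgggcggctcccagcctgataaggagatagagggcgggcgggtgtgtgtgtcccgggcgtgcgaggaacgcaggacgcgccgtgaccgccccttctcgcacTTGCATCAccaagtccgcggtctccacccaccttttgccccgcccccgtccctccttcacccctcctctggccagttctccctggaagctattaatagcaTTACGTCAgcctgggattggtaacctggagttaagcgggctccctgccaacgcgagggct
Trib3, chr2:152344011-152344310, minus strand: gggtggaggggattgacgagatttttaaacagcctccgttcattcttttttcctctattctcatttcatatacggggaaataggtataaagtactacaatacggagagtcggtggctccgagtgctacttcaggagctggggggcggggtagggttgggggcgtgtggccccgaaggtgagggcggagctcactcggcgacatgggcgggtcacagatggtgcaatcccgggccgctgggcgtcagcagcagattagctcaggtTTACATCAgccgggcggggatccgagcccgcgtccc
Chac1, chr2:119350992-119351291, plus strand: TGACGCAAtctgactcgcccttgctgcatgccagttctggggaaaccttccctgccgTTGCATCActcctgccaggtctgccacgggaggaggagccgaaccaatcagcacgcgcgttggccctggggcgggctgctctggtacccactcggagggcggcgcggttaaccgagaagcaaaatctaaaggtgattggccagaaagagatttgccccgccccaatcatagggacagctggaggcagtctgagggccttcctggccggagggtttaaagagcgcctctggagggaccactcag
Phgdh, chr3:98339920-98340219, minus strand: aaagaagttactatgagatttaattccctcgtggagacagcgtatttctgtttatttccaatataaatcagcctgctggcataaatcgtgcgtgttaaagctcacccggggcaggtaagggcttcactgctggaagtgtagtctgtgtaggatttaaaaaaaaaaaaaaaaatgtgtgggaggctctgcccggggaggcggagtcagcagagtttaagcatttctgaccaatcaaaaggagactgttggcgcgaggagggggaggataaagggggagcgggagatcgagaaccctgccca
Shmt2, chr10:127522395-127522694, minus strand: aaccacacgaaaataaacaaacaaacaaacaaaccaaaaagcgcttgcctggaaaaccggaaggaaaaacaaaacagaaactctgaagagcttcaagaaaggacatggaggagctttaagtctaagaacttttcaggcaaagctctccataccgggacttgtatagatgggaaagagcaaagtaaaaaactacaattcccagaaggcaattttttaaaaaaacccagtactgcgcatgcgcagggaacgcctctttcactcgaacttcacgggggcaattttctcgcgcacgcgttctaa
Counted from the start site, the Asns match runs from base -23 to -16, and the Trib3 match from base 14 to 21. In Atf3 the TGATGNAA match runs from base -110 to -103 and the TGACGNAA match from -10 to -3. In Chac1 the TGATGNAA match runs from base -193 to -186 and the TGACGNAA match from -250 to -243. The windows used here for Atf3, Psat1 and Mthfd2 lie wholly inside the genes' annotated spans. Psat1 was searched at each of its listed starts.

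Libraries held between 28139419 and 41179056 expected counts. The libraries differed in base composition in a way that bears on these genes: the count-weighted mean GC content of the transcripts was 49.8% to 50% in 5 libraries (27HC 1_3, 1_5 and 2_3, DMSO 1_5 and 2_3) and 51.2% to 52.8% in the other 14 (7 27HC and 7 DMSO). The 5 are called low-GC libraries, and results are given with and without them. They also differed in markers of other cells. The summed level of 12 skeletal muscle genes was 13.6 to 4688 CPM (counts scaled to library size) in the low-GC libraries (median 845) and 6.02 to 1533 CPM in the others (median 43.7). The 10 T cell genes summed to a median of 124 CPM (65.8 to 149) against 72.9 CPM (47.0 to 183), and the 8 epithelial genes to a median of 64.3 CPM (46.2 to 104) against 134 CPM (81.6 to 148). Of the epithelial markers, Krt18 was at a median of 86.9 CPM over all tumours, while Krt8, Epcam and Cdh1 were at 3.09, 2.12 and 6.97 CPM. No marker on these lists was at 0 in every library. The fits, other than the interaction, were repeated with a muscle score as covariate. The number of genes whose level followed Asns then came to 8768, against 9290, and that for Atf4 to 10077, against 10439. The median log2 fold change of the 10 genes, 27HC over DMSO, came to -0.11, against -0.16. The part of the other markers in the results below was not tested. In whole tumours, fewer cells of a type and less RNA per cell cannot be told apart.

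Per kilobase of transcript, averaged over the 19 tumours, Phgdh and Atf4 were the most abundant of the 10 genes, at 179 and 150.5 CPM per kilobase. Shmt2 followed at 112 CPM per kilobase. Asns (49.2), Psat1 (46), Ddit3 (43.4), Trib3 (34.5) and Mthfd2 (31.4 CPM per kilobase) lay between these and Chac1 (14.9), and Atf3 was the least abundant at 5.45 CPM per kilobase. Across the 19 tumours Trib3 varied most, 7.53-fold between its highest and lowest CPM, followed by Phgdh (5.39-fold), Shmt2 (5.12-fold) and Chac1 (5.11-fold). Mthfd2 varied least, at 1.87-fold. Within the 14 tumours outside the low-GC libraries the ranges narrowed to 3.09-fold for Trib3, 3.21-fold for Phgdh, 2.67-fold for Shmt2 and 2.70-fold for Chac1, while that of Psat1 stayed at 2.05-fold.

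The first question was how the genes differed with the treatment of the vesicle donor cells. The targets Asns, Atf3 and Psat1 were lower on average in 27HC tumours, whereas Atf4 itself was level between the groups. Markers of other cells, none of them called by edgeR, also stood to one side of 0. Of 12 skeletal muscle genes 12 had log2 fold changes above 0 (median 1.93), with summed medians of 223 CPM in 27HC tumours (6.02 to 4688) and 38.7 CPM in DMSO tumours (7.11 to 1533), while without the low-GC libraries 12 of 12 were below 0 (median -0.94). Of 9 neutrophil genes 7 were above 0 (median 0.61, and 0.64 without the low-GC libraries), and of 10 T cell genes 9 were below 0 (median -0.20, and -0.38). Over all genes, edgeR's quasi-likelihood test called 0 of 15629 (0%) at an adjusted p under 0.05, the smallest adjusted p being 0.838. The unadjusted p was under 0.05 for 354 genes, limma-voom called 0 and DESeq2 called 2. The members' values below were used to choose them, and nothing is read from them beyond their size.

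Atf4 lay between 136 and 334 CPM in 27HC tumours (median 282) and between 175 and 329 CPM in DMSO tumours (median 275). The groups overlapped over almost their whole range, with 5 of 10 27HC tumours below the DMSO median. The log2 fold change was -0.01 (SE 0.17), and 0.05 (SE 0.11) without the low-GC libraries.

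Asns, which makes asparagine from aspartate and glutamine, lay between 61.5 and 117 CPM in 27HC tumours (median 88.8) and between 78.8 and 185 CPM in DMSO tumours (median 107). Of the 27HC tumours, 9 of 10 were below the DMSO median, and 4 DMSO tumours were above every 27HC tumour. The log2 fold change was -0.39 (SE 0.15), -0.34 (SE 0.13) without the low-GC libraries, and between -0.45 and -0.28 with each tumour left out in turn. The value nearest 0 was that without DMSO 1_3, the tumour with the highest Asns.

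Atf3 lay between 4.22 and 12.4 CPM in 27HC tumours (median 8.12) and between 6.98 and 19.5 CPM in DMSO tumours (median 10.4). The DMSO tumours spread more widely, 4 of them were above every 27HC tumour, and 6 of 10 27HC tumours were below the DMSO median. The log2 fold change was -0.53 (SE 0.22), and -0.51 (SE 0.22) in the 14 tumours, where 7 of 7 27HC tumours were below the DMSO median.

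Of the other stress genes, Ddit3 had a log2 fold change of -0.18 (SE 0.17), with 20.5 to 57.1 CPM in 27HC tumours (median 35.5) and 25.4 to 54.5 CPM in DMSO tumours (median 39.4). Trib3 lay at 15.6 to 117 CPM in 27HC tumours (median 80.5) and 22.2 to 116 CPM in DMSO tumours (median 72.7). Chac1 lay at 7.92 to 40.5 CPM in 27HC tumours (median 27.2) and 9.0 to 38.1 CPM in DMSO tumours (median 23.2). For both Trib3 and Chac1 the groups covered nearly the same range, and the fold change was small beside its error, at -0.09 (SE 0.38) for Trib3 and 0.03 (SE 0.33) for Chac1.

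Psat1, the transaminase of serine synthesis, lay between 83.5 and 134 CPM in 27HC tumours (median 98.5) and between 95.9 and 171 CPM in DMSO tumours (median 125). As for Asns, 9 of 10 27HC tumours were below the DMSO median. The log2 fold change was -0.26 (SE 0.12), and -0.29 (SE 0.13) without the low-GC libraries. Phgdh, the dehydrogenase one step earlier, lay between 142 and 632 CPM in 27HC tumours (median 331) and between 160.0 and 768 CPM in DMSO tumours (median 325), with a log2 fold change of -0.16 (SE 0.30) and 5 of 10 27HC tumours below the DMSO median. Whether Phgdh and Psat1 differ in this was not tested.

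Shmt2, which splits serine into glycine and a one-carbon unit, lay between 100.4 and 400.4 CPM in 27HC tumours (median 262) and between 123 and 514 CPM in DMSO tumours (median 221). Its log2 fold change was -0.09 (SE 0.29). Mthfd2, which oxidises the one-carbon unit, lay between 43.5 and 81.2 CPM in 27HC tumours (median 64.0) and between 59.8 and 80.2 CPM in DMSO tumours (median 69.6). Its log2 fold change was -0.16 (SE 0.12) and its groups overlapped, with 4 27HC tumours below the lowest DMSO tumour. The highest DMSO value of Asns, Trib3, Psat1, Phgdh and Shmt2 was in the same tumour, DMSO 1_3, and without it the fold changes of Phgdh, Shmt2 and Trib3 were 0.06, 0.09 and 0.02.

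**Figure D1:**
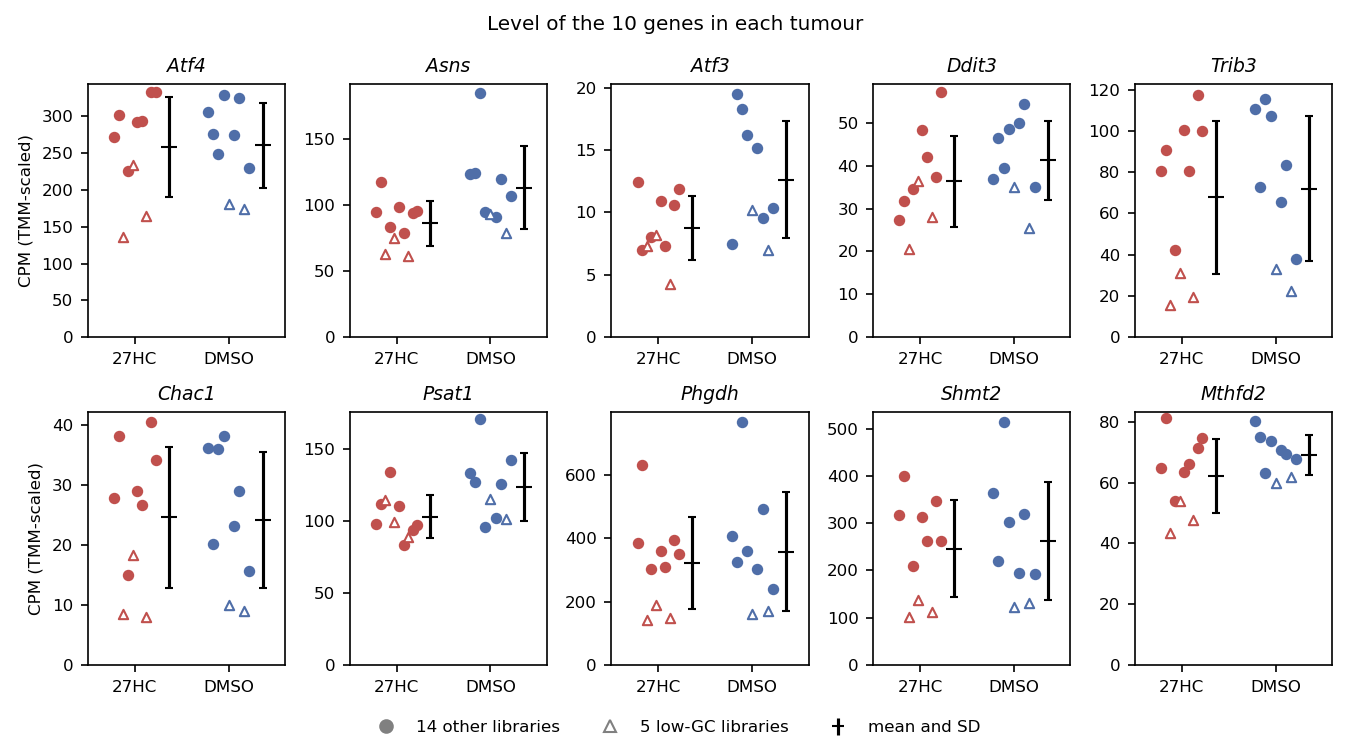
Level of each of the 10 genes (vertical axis, TMM-scaled CPM, from 0) in every tumour, with 27HC tumours left of DMSO tumours. Filled circles are the 14 other libraries, open triangles the 5 low-GC libraries, and black bars mark the mean and SD of each group. The triangles sit at the bottom of both groups for Trib3, Phgdh and Shmt2, and 4 DMSO tumours stand above every 27HC tumour for Asns and for Atf3.

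In all, 9 of the 10 log2 fold changes were below 0, with a median of -0.16, against 7199 of 15629 below 0 and a median of 0.01 over all genes tested. Without the low-GC libraries, 6 of 10 were below 0 and the median was -0.07, against 7697 of 15260 genes below 0 (smallest adjusted p 0.787 by edgeR, 917 genes at an unadjusted p under 0.05 and 0 called). The lower values of Asns, Atf3 and Psat1 were of similar size in both sets of tumours, whereas those of Atf4, Trib3 and Shmt2 were above 0 in the 14 tumours. With the per-library GC correction, 10 of 10 were below 0, with a median of -0.18. Over all genes 7637 of 15629 then were, with a median of 0.003.

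**Figure D2:**
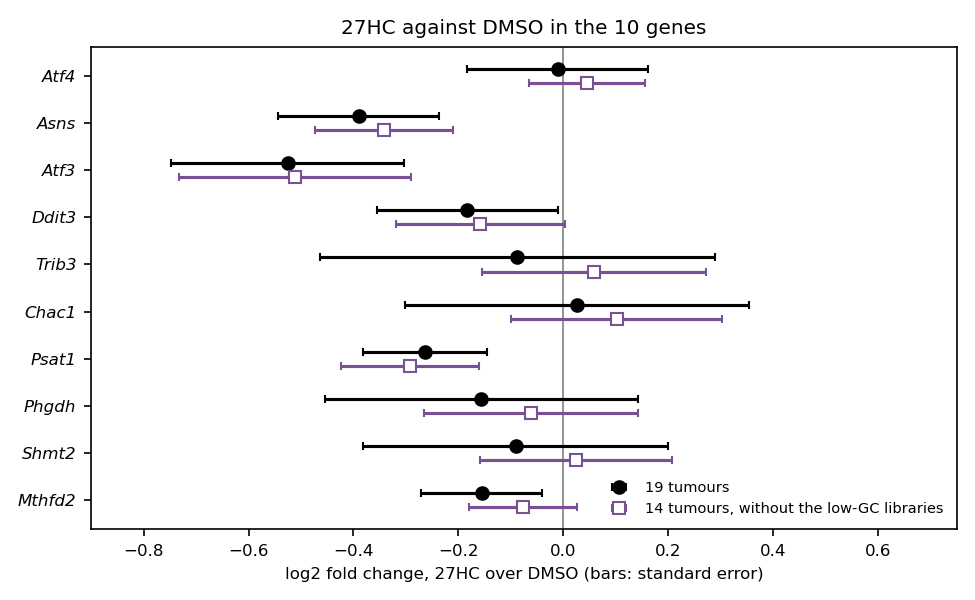
Log2 fold change of 27HC over DMSO tumours (horizontal axis) for each gene, from edgeR. Black circles are the 19 tumours, open squares the 14 tumours without the low-GC libraries, and bars are standard errors. Asns, Atf3 and Psat1 lie below 0 in both fits, at -0.39, -0.53 and -0.26 in the 19 tumours.

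Genes of the same pathway outside the 10 were taken from lists chosen with earlier results of these data known. None of their members was called in the 27HC against DMSO comparison by edgeR. Of 13 aminoacyl-tRNA synthetases, which charge tRNAs with amino acids, 12 had log2 fold changes below 0 (median -0.15), and 11 of 13 did in the 14 tumours. Of 18 genes of eIF2 kinases, phosphatases, subunits and regulators, 14 were below 0 (median -0.08), and of 19 further genes of serine, glycine and one-carbon metabolism, 14 were below 0 (median -0.08). Of 27 other ATF4 targets, 13 were above and 14 below 0 (median -0.01). Among 12 cell cycle genes 11 were below 0 (median -0.10), and among 18 endoplasmic reticulum chaperone and sensor genes 9 were above and 9 below.

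The genes with the smallest unadjusted p on these lists lay on both sides of 0, and none was called by edgeR. Slc7a3, a transporter of basic amino acids, averaged 1.06 ± 0.840 CPM in 27HC tumours and 0.646 ± 0.332 CPM in DMSO tumours (SD, n = 10 and 9), a log2 fold change of 0.71 (SE 0.38). Eif2ak3, the kinase PERK, averaged 30.7 ± 3.78 CPM in 27HC tumours and 27.2 ± 5.38 CPM in DMSO tumours, a log2 fold change of 0.17 (SE 0.12). On the endoplasmic reticulum list the log2 fold change was 0.19 (SE 0.15) for Manf and 0.13 (SE 0.13) for Ern1. Others were lower in 27HC tumours. Atf6, with the smallest unadjusted p of the endoplasmic reticulum list, had a log2 fold change of -0.20 (SE 0.13). Eif2b3, with the smallest of the eIF2 list, had -0.23 (SE 0.11), and Eif2b1 of that list had -0.18 (SE 0.13). Lars, leucyl-tRNA synthetase, averaged 70.3 ± 10.1 CPM in 27HC tumours and 85.7 ± 22.1 CPM in DMSO tumours (SD, n = 10 and 9), and Tars, threonyl-tRNA synthetase, averaged 92.6 ± 15 CPM in 27HC tumours and 109 ± 19.8 CPM in DMSO tumours. Aldh1l2, a mitochondrial folate enzyme, averaged 38.6 ± 5.16 CPM in 27HC tumours and 46.6 ± 10.2 CPM in DMSO tumours, a log2 fold change of -0.27 (SE 0.13). Hspa9, a mitochondrial chaperone, averaged 392 ± 56.4 CPM in 27HC tumours and 497 ± 75.4 CPM in DMSO tumours, a log2 fold change of -0.34 (SE 0.12), and -0.40 in the 14 tumours. Its adjusted p by edgeR was 1.00. Gdf15, a secreted stress factor, averaged 0.809 ± 0.465 CPM in 27HC tumours and 1.40 ± 0.826 CPM in DMSO tumours, with overlapping spreads.

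The titles carry a first number, 1 or 2, of no stated meaning, which splits each treatment group. Between tumours with number 2 and number 1, edgeR called 0 of 15629 genes (0%), with 384 at an unadjusted p under 0.05, while limma-voom called 0 and DESeq2 called 39. The log2 differences of the 10 genes, number 2 minus number 1, ranged from -0.24 for Phgdh to 0.26 for Ddit3, with standard errors between 0.12 and 0.40. The 27HC against DMSO fold change had a median over the 10 genes of 0.03 in the tumours with number 2 and -0.36 in those with number 1. Trib3 differed most, at 0.66 with number 2 and -0.74 with number 1. Tested as an interaction over all genes, edgeR called 0 of 15629 (0%), with 223 at an unadjusted p under 0.05 and 0 also with RLE size factors. The interaction term was above 0 for 9 of the 10 genes, against 7600 of 15629 genes tested. It was 1.43 (SE 0.73, edgeR adjusted p 0.911) for Trib3. The 10 were chosen in part for moving together, so they are not separate observations. Within both numbers Asns (-0.23 with number 2 and -0.49 with number 1), Atf3 (-0.25 and -0.72) and Psat1 (-0.34 and -0.17) were below 0.

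The low-GC libraries were at or near the bottom for most of the 10 genes. Trib3 lay between 15.6 and 33.0 CPM in the 5 low-GC libraries and between 38.1 and 117 CPM in the other 14. Phgdh lay between 142 and 188 CPM in the low-GC libraries and between 239 and 768 CPM in the others. Shmt2 lay between 100.4 and 138 CPM in the low-GC libraries and between 193 and 514 CPM in the others. For these 3 genes the sets did not overlap, in either treatment group. How many of all genes separate in this way was not counted, so the separation is not read as particular to them. By mean log2 level, low-GC minus other libraries, 0.256% of all genes lay lower than Trib3, 4.16% lower than Shmt2 and 4.45% lower than Phgdh. The highest such share among the 10 genes was 40.7%, for Psat1. Of the genes with the highest GC content, in 5 bins of equal gene number, 85.7% were below 0. For Atf4, Asns and Chac1, 4 of the 5 low-GC libraries were below all the others, and for Psat1 none was.

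The shift followed the base composition of the genes' own transcripts in part. As log2 means, low-GC minus other libraries, it was -1.81 for Trib3, whose transcripts average 59.9% GC, -1.45 for Chac1 (57.4%), -1.27 for Shmt2 (58.1%) and -1.25 for Phgdh (55.2%). It was -0.71 for Atf4 (55.5%), -0.65 for Atf3 (51.1%), -0.53 for Ddit3 (52.3%), -0.52 for Asns (49.8%), -0.39 for Mthfd2 (49.4%) and -0.14 for Psat1 (47.3%). Over all genes with a GC value, the median shift in 5 bins of equal gene number, from lowest to highest GC content, was 1.02, 0.48, 0.01, -0.41 and -0.77. A correction of each library against GC content moved Trib3 to -0.96, Chac1 to -0.76, Phgdh to -0.76, Shmt2 to -0.53 and Atf4 to -0.18. It moved Psat1, Mthfd2 and Asns further below 0, to -0.57, -0.55 and -0.63, and Atf3 to -0.59 and Ddit3 to -0.33. After correction all 10 shifts were below 0, between -0.96 and -0.18. How many of all genes were below 0 after correction was not counted, so this is not read as particular to the 10. Among the low-GC libraries the muscle sum was 4017 CPM in 27HC 1_3, 4688 in 27HC 1_5 and 845 in 27HC 2_3. It was 170 CPM in DMSO 1_5 and 13.6 in DMSO 2_3. The highest sums in the others were 1392 CPM in 27HC 1_2, 1533 in DMSO 1_2 and 1473 in DMSO 1_4. The epithelial sum was 63.4 CPM in 27HC 1_5, 46.2 in 27HC 2_3 and 64.3 in DMSO 2_3, below the lowest other library (81.6). It was 84.9 CPM in 27HC 1_3 and 104 in DMSO 1_5, within the range of the others. The part of cell content in the shift was not tested, nor was that of base composition beyond the correction.

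**Figure D3:**
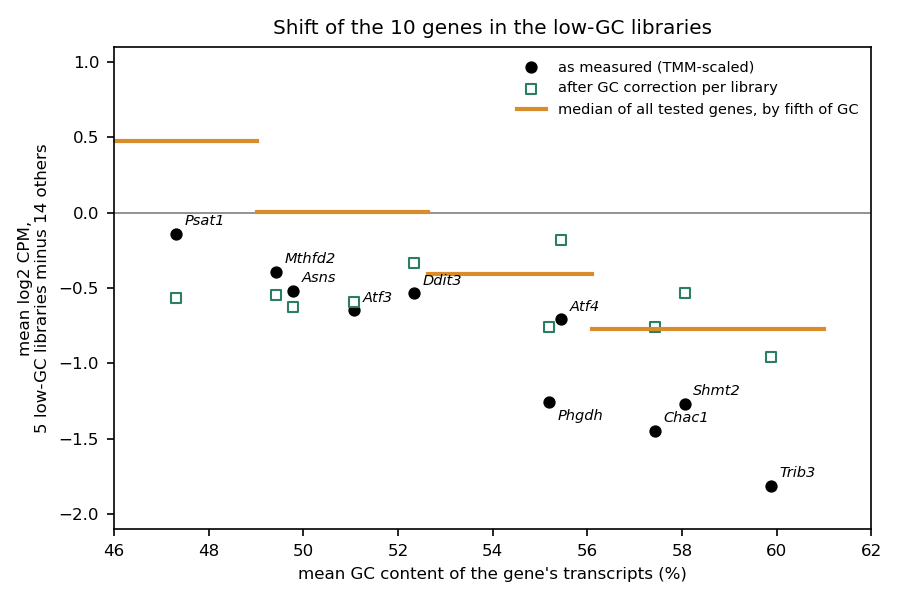
Mean log2 CPM of each gene in the 5 low-GC libraries minus the 14 others (vertical axis) against the mean GC content of its transcripts (horizontal axis, percent). Black circles are values as measured, open squares values after GC correction, and orange lines the median of all tested genes in each of the GC bins that the axis covers. Trib3, at 59.9% GC, lies at -1.81, and all 10 genes lie below 0 before and after correction. The orange lines are for values before correction, and no such background was counted after it.

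The second question was how the genes moved together across tumours. Pairs were described by Spearman's rho of log2 CPM, with no test. Co-variation was used to choose the genes, and 5 libraries had a lower mean GC content than the others. All points share library depth, scaling and base composition. Over the 14 tumours outside the low-GC libraries the 45 pairs had a median rho of 0.18, with 33 above 0 and 11 above 0.5. Over all 19 tumours the median was 0.58, with 42 above 0 and 28 above 0.5.

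Phgdh with Shmt2 and Trib3 with Chac1 were the closest pairs in both sets. Phgdh and Shmt2 had a rho of 0.97 over 14 tumours and 0.99 over 19. Trib3 and Chac1 had a rho of 0.91 over 14 tumours and 0.95 over 19. The 2 pairs were linked to each other, with rho over 14 tumours of 0.78 for Trib3 and Shmt2, 0.76 for Chac1 and Shmt2, 0.74 for Trib3 and Phgdh and 0.72 for Chac1 and Phgdh. Pearson's r was also taken over the 14 tumours without the 2 farthest from the median of the first gene named in each pair. It was 0.84 for Phgdh and Shmt2 and 0.87 for Trib3 and Chac1. For the links between the pairs it was 0.74 for Trib3 and Shmt2, 0.74 for Chac1 and Shmt2, 0.53 for Chac1 and Phgdh and 0.45 for Trib3 and Phgdh. With library totals in place of TMM, rho over 14 tumours was 0.84 for Phgdh and Shmt2 and 0.85 for Trib3 and Chac1, but 0.41 for Trib3 and Phgdh and 0.49 for Chac1 and Phgdh, and the median over all 45 pairs in 19 tumours was 0.21.

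Atf4 and Asns did not move together outside the low-GC libraries. Their rho was 0.02 over 14 tumours and 0.55 over 19. Atf4 tracked Chac1 (0.72 over 14 tumours), Mthfd2 (0.64), Trib3 (0.62) and Ddit3 (0.50), and ran opposite to Psat1 (-0.62). Pearson's r over the 14 tumours was 0.78 for Atf4 and Chac1 and 0.75 for Atf4 and Trib3. Without the 2 tumours farthest from the Atf4 median it was 0.46 and 0.32. Leaving them out narrows the range of Atf4, which by itself lowers r, so nothing is read from the fall. Asns tracked Psat1 (0.64 over 14 tumours) and Phgdh (0.55), the serine synthesis enzymes, more than Trib3 (0.29), Chac1 (0.21) or Ddit3 (0.04). These values depended on the scaling. With library totals, rho of Asns over 14 tumours was 0.83 with Psat1, 0.34 with Phgdh, -0.18 with Trib3, -0.27 with Chac1 and 0.11 with Ddit3. That of Atf4 was 0.33 with Chac1, 0.50 with Mthfd2, 0.42 with Trib3, 0.75 with Ddit3 and -0.34 with Psat1. Whether these correlations differ from one another was not tested. Atf3 had rho between -0.17 and 0.38 with the other 9 genes over 14 tumours, the highest with Ddit3, and 0.23 with Asns.

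**Figure D4:**
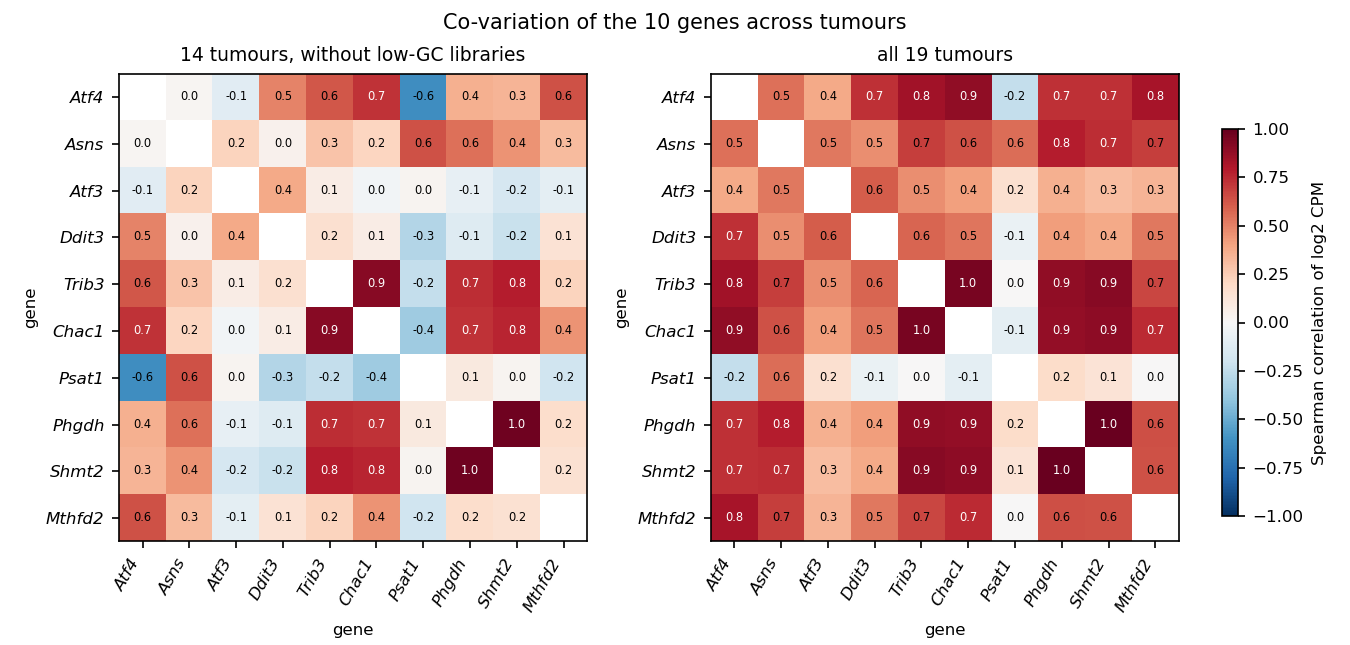
Spearman correlation of log2 CPM between each pair of the 10 genes (colour and printed value, blue below 0 and red above 0), over the 14 tumours without the low-GC libraries on the left and all 19 tumours on the right. Phgdh with Shmt2 and Trib3 with Chac1 stay above 0.9 in both, while Atf4 with Asns is 0.02 on the left and 0.55 on the right.

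The genes most like each of the 3 named in the selection were taken by rho over 19 tumours. For Asns they were G6pdx (0.95 over 19 tumours, 0.91 over 14), Alkbh3 (0.93 and 0.90), Cdc42se2, Hgsnat and Tnfrsf12a. For Atf4 they were Hist3h2a (0.94 over 19 tumours, 0.91 over 14), Mnt (0.94 and 0.89), Ski, Bhlhe40 and Zbed3. For Atf3 they were Msra (0.79 over 19 tumours, 0.67 over 14), Aldh9a1, Hmox1 (0.73 and 0.64), Fam167b and Gnb1. G6pdx encodes glucose-6-phosphate dehydrogenase of the pentose phosphate pathway, and Hmox1 encodes haem oxygenase. None of the 10 genes is among these 15.

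To set the pathway against the rest of the transcriptome, each gene's log2 level was fitted against the log2 CPM of Asns, with treatment as a covariate, by edgeR's quasi-likelihood test. A slope of 1 is a doubling of the gene for each doubling of Asns. In 19 tumours 4566 of 15628 genes (29.2%) had a positive slope at an adjusted p under 0.05, and 4724 had a negative one. In the 14 tumours 157 of 15259 genes (1.03%) had a positive slope and 86 a negative one. Over all 19 tumours, library totals in place of TMM left 7 genes called in either direction, against 9290 with TMM. Asns and the genes set against it come from the same libraries and share their scaling.

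Of the other 9 genes, 8 had a called positive slope on Asns in 19 tumours and 1, Phgdh, in 14. As selection used this co-variation, nothing is read from those counts. The slopes in 14 tumours were 1.33 (SE 0.29) for Phgdh, 1.03 (SE 0.31) for Shmt2 and 0.60 (SE 0.26) for Psat1. In 19 tumours they were 1.90 (SE 0.23), 1.83 (SE 0.26) and 0.42 (SE 0.15). Trib3 had a slope of 0.47 (SE 0.46) in 14 tumours and 2.18 (SE 0.50) in 19. The slope of Atf4 was -0.22 (SE 0.24) in 14 tumours and 0.73 (SE 0.25) in 19.

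Among the other ATF4 targets, 14 of 27 rose with Asns in 19 tumours and 5 fell, with a median slope of 0.65 over the list against -0.11 over all genes tested. Those that rose included Pck2, mitochondrial phosphoenolpyruvate carboxykinase (slope 1.70, SE 0.22, edgeR adjusted p 2.55e-05), Eif4ebp1, a translation repressor (1.65, SE 0.22), and the proline synthesis enzymes Aldh18a1 (1.25, SE 0.21) and Pycr1 (1.38, SE 0.24). Slc7a11, the cystine transporter, fell with Asns (-0.85, SE 0.20, edgeR adjusted p 0.00182), and was named after its values were seen. The 14 that rose had a median transcript GC content of 56.4% and the 5 that fell 48.2%, against 55.6% and 45.6% over all called genes. In the 14 tumours none of the 27 was called by edgeR, and the median slope was -0.06. There 6 of the 27 had an unadjusted p under 0.05, against 3495 of 15259 genes tested. Pck2 then had a slope of 0.97 (SE 0.26, edgeR adjusted p 0.0687). Of Pck2, Eif4ebp1, Aldh18a1, Pycr1, Gdf15 and Slc7a11, which were refitted over 19 tumours under other settings, 4 rose with library GC content as a covariate and none was called by edgeR with library totals in place of TMM. After the per-library GC correction 13 of the 27 rose and 4 fell (median slope 0.42), against 3897 of 15628 genes (24.9%) that rose and a median of -0.03.

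Of the 13 aminoacyl-tRNA synthetases, 7 rose with Asns in 19 tumours and 2 fell (median slope 0.42). Sars, seryl-tRNA synthetase, had a slope of 1.43 (SE 0.19) in 19 tumours and, as the sole gene of the list called in 14, 0.99 (SE 0.23, edgeR adjusted p 0.0437). Wars, Gars and Yars had slopes of 1.32 (SE 0.18), 0.92 (SE 0.14) and 0.88 (SE 0.15) in 19 tumours, and 0.71 (SE 0.21), 0.54 (SE 0.18) and 0.59 (SE 0.19) in 14, where their adjusted p by edgeR was 0.0764, 0.101 and 0.101. In 14 tumours 5 of 13 had an unadjusted p under 0.05, against 3495 of 15259 genes tested.

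Of the 18 genes of the eIF2 branch, 5 rose with Asns in 19 tumours and 8 fell (median slope -0.25). The share that rose, 27.8%, was close to the 29.2% of all genes. Of the 5 subunits of eIF2B, the exchange factor that phosphorylated eIF2 inhibits, 3 rose, with a slope of 1.44 (SE 0.18) for Eif2b2, 0.99 (SE 0.18) for Eif2b4 and 1.31 (SE 0.17) for Eif2b5. The slope was -0.04 (SE 0.20) for Eif2b1 and -0.01 (SE 0.17) for Eif2b3, and Eif2b4 was named after its values were seen. In 14 tumours Eif2b2 was the 1 gene of the list called (0.83, SE 0.18, edgeR adjusted p 0.0396), and Eif2b5 had 1.08 (SE 0.27, edgeR adjusted p 0.0513). Impact, an inhibitor of the amino acid sensor GCN2, fell with Asns in 19 tumours (-1.53, SE 0.23) and had -1.12 (SE 0.30, edgeR adjusted p 0.0678) in 14. The kinase gene Eif2ak3 (PERK) fell with Asns in 19 tumours (-0.46, SE 0.17).

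Of the 19 further genes of serine, glycine and one-carbon metabolism, 4 rose with Asns in 19 tumours and 6 fell (median slope -0.30). In 14 tumours none was called by edgeR, and 2 had an unadjusted p under 0.05, against 3495 of 15259 genes tested. The names that follow are for 19 tumours unless stated. Those that rose were Gcsh of the glycine cleavage system (0.61, SE 0.14), Mthfd1 (0.42, SE 0.14), Mthfd1l and Psph, the last enzyme of serine synthesis (0.39, SE 0.14), of which Mthfd1l and Psph were named after their values were seen. Psph had a slope of 0.13 (SE 0.23) in 14 tumours. Aldh1l2 (-0.49, SE 0.16) and the methionine synthase Mtr (-0.83, SE 0.15) fell with Asns in 19 tumours. The share of this list that rose, 21.1%, was below the 29.2% of all genes, and whether the list differs from all genes was not tested.

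Of 5 further stress and growth lists, 35.7% to 50% of the genes rose with Asns in 19 tumours, against 29.2% of all genes, and of the cell type marker lists between 0% (skeletal muscle, T cell, neutrophil) and 50% (endothelial) did. Of 18 endoplasmic reticulum chaperone and sensor genes 7 rose and 4 fell, and Calr, calreticulin, had a slope of 1.00 (SE 0.19). Of 10 mitochondrial stress genes 5 rose and 2 fell, and Clpb, a mitochondrial disaggregase, had a slope of 1.73 (SE 0.25). Of 12 hypoxia genes 5 rose and none fell at an adjusted p under 0.05 in edgeR, and Ndrg1 had a slope of 1.93 (SE 0.41). Of 14 immediate early genes 5 rose and 2 fell, and of 12 cell cycle genes 5 rose and 4 fell. The genes that rose had a median transcript GC content between 53.2% (cell cycle) and 60.9% (immediate early). Hspd1, the mitochondrial chaperonin, was among those that fell (-1.01, SE 0.19). In 14 tumours the replication helicase gene Mcm5 rose with Asns (1.12, SE 0.23, edgeR adjusted p 0.0345) and Fos fell (-2.96, SE 0.69, edgeR adjusted p 0.0454), and no other gene of these 5 lists was called.

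**Figure D5:**
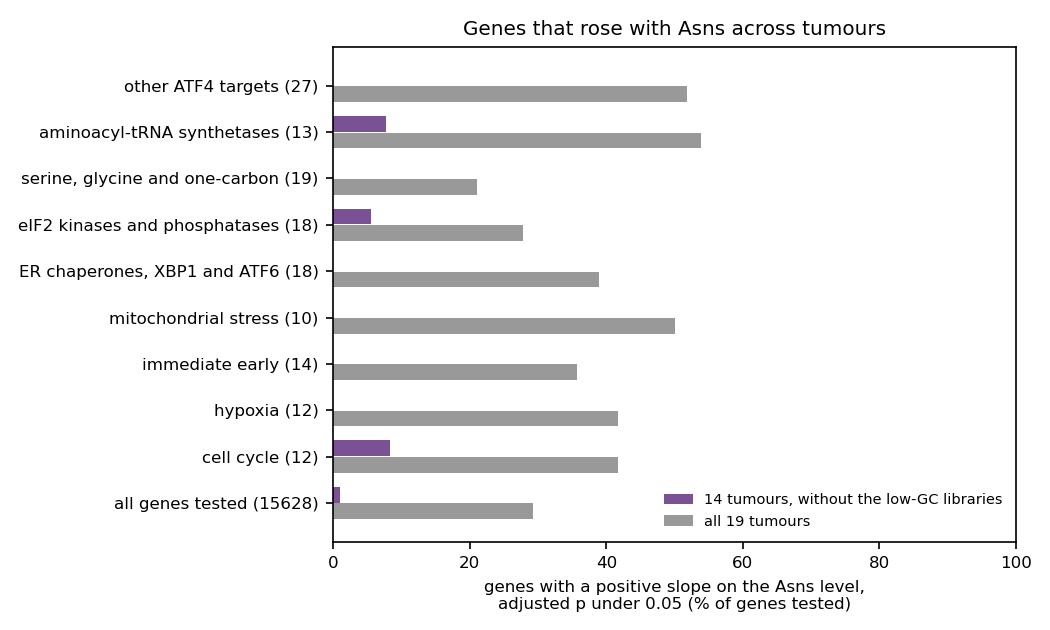
Share of each list's genes (horizontal axis, percent of genes tested, number in brackets) with a positive slope on the Asns level at an adjusted p under 0.05 in edgeR. Purple bars are the 14 tumours without the low-GC libraries and grey bars all 19 tumours. The other ATF4 targets reach 14 of 27 over 19 tumours and none over 14, against 29.2% and 1.03% of all genes.

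Fitted against Atf4 in place of Asns, 4969 of 15628 genes (31.8%) had a positive slope in 19 tumours and 5470 a negative one. Of the other 9 genes 8 had a called positive slope, from which nothing is read. The exception was Psat1, with a slope of -0.06 (SE 0.15). Of the other ATF4 targets 18 of 27 rose with Atf4 in 19 tumours and 4 fell, those that rose having a median transcript GC content of 56.2%. Of the tRNA synthetase list 6 of 13 rose, and of the serine, glycine and one-carbon list 3 of 19. In 14 tumours 1 of 15259 genes (0.00655%), Mnt, had a positive slope on Atf4 and 1, Spic, a negative one. In those tumours the slopes on Atf4 were 1.29 (SE 0.51) for Chac1, 1.28 (SE 0.56) for Trib3, 1.01 (SE 0.40) for Ddit3, 0.59 (SE 0.27) for Mthfd2 and -0.96 (SE 0.29) for Psat1, and -0.41 (SE 0.37) for Asns. Of the 27 other targets 22 had a slope above 0 in 14 tumours (median 0.52), against 7415 of 15259 genes.

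Fitted against Atf3 in 19 tumours, edgeR called 0 of 15628 genes (0%), the smallest adjusted p being 0.0571, with 6133 genes at an unadjusted p under 0.05 and 1 gene called by limma-voom. The count rested on single tumours and on the scaling. It was 6216 without DMSO 1_1, 3100 without 27HC 1_2, 2363 without DMSO 2_2, 1664 without DMSO 2_1 and 1142 with RLE size factors. In the 14 tumours it was 0, with 183 genes at an unadjusted p under 0.05. The slopes of the other 9 genes on Atf3 ran from 0.07 (SE 0.13) for Psat1 to 0.88 (SE 0.36) for Trib3 in 19 tumours, and from -0.07 (SE 0.22) for Shmt2 to 0.23 (SE 0.19) for Ddit3 in 14.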

How the data were processed

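Stranded mRNA libraries of 19 tumours were read from both ends, per the labels' protocols. The deposited table holds expected counts per gene (26796 Ensembl identifiers, 19 columns matched to samples by title), which the authors made from the reads. Kallisto 0.44.0, limma, edgeR and the GRCm38 build are listed, with no role, in the submitters' processing notes, and the step from transcripts to genes is not given in the sources used here. Estimated counts share reads between near-identical transcripts by a model.

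The deposited expected counts were rounded to whole numbers and tested with edgeR 4.0.16 (R 4.3.3): filterByExpr (15629 genes kept), TMM, the quasi-likelihood test, and Benjamini-Hochberg adjustment over all genes, with a threshold of 0.05. The 3 slope fits have treatment as a covariate. CPM are scaled by TMM, and correlations are of log2 CPM (prior count 2). Alternatives used DESeq2 1.42.0, limma 3.58.1, RLE factors, other filters, covariates and left-out tumours. The edgeR fits were tested on simulated data. GC content is the mean over a gene's GENCODE M21 transcripts. Low-GC libraries lie below the widest gap in mean GC content. The removal of low-GC libraries, the GC correction (loess, span 0.3), the GC covariate and library totals were chosen after seeing the data. Totals of 28139419 to 41179056 counts leave little counting error for these genes.

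The 10 genes and the lists were chosen with earlier results of these data known. Beside the 10, genes were named by rule: per list, the 4 with the smallest unadjusted p in the Asns slope and the 3 in 27HC against DMSO, and the 5 most like Asns, Atf4 and Atf3 with a mean log2 CPM of at least 1, of which part is named here.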

Additional observations from a re-analysis of the deposited data

How the results depend on the processing

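The fold changes of Asns, Atf3 and Psat1 stayed below 0 under every alternative run. These included the DESeq2, limma-voom, scaling, filter, covariate, title number and left-out-tumour fits. The genes were chosen by this difference and the runs share its tumours, so the unchanged sign is not read as support. The median over the 10 genes was between -0.24 and -0.10 with each tumour left out, and edgeR called 0 genes in each of these fits, against 354 at an unadjusted p under 0.05 in all 19. DESeq2 called 2 genes for 27HC against DMSO and 39 for the first title number.

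The slope counts moved most. For Asns, against 9290 calls, there were 243 without the low-GC libraries, 7 with library totals, 3363 with library GC content as a covariate, 7299 with the GC correction, and 7339 to 9989 with each tumour left out. For Atf4, against 10439, there were 2 without the low-GC libraries, 7659 with library totals and 4525 with the GC covariate. The GC correction gave 2757, and leaving out each tumour gave 8254 to 10687. For Atf3, against 0, there were 1142 with RLE factors, 1 by limma-voom, 1 with no filter, and 0 to 6216 with each tumour left out. The fits in 14 tumours also hold fewer samples, and the part of sample number and of the low-GC libraries in the drop was not tested.

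Single slopes on Asns changed sign without the low-GC libraries (Atf4 -0.22, Mthfd2 -0.025), with library totals (Atf4 -0.10, Mthfd2 -0.070, Psph -0.053) and with the GC correction (Slc7a11 0.065, Psph -0.085). Slopes on Atf4 changed sign without the low-GC libraries (Asns -0.41, Phgdh -0.29, Shmt2 -0.051) and with library totals (Asns -0.066). The cause was not tested.

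The median pairwise correlation of 0.58 was 0.18 without the low-GC libraries, 0.21 with library totals, 0.55 after GC correction, 0.71 in 27HC tumours, 0.50 in DMSO tumours and 0.64 by Pearson's r, and 0.53 to 0.63 with each tumour left out.

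With the title number as a replicate block, 4568 genes were called for Asns, 4998 for Atf4 and 0 for 27HC against DMSO. Of 9 same-numbered pairs, 5 had deviations correlated over 0.1 (-0.50 to 0.87) and 2 correlated best with their own number, so the numbers were not taken to pair the tumours.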
